A study of Mus musculus with 241 samples.

Results

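The cells described here are single thymus cells with an Il2ra transcript, captured on the C1 microfluidic chip, of which 29 also held a Bcl11b transcript and 94 did not. They were chosen by measured values, and the other C1 cells were 99 kept cells without Il2ra and 5 cells left out. A cell was kept with at least 1000 genes above 1 FPKM (fragments per kilobase of transcript, scaled to library size, so that levels of genes of different length can be compared). A kept cell became a member with Il2ra above 1 FPKM, and it was placed in the class with Bcl11b above 1 FPKM or in the class without it. Il2ra and Bcl11b levels therefore only describe the choice and are not results.

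The study profiled RNA of early T-cell precursors from the thymus of C57BL/6 mice. C1 cells and 2 droplet (10x) libraries came from wild-type animals and from a single gate, Lin- 7AAD- CD44+ Kit+. The 12 bulk libraries came from Bcl11byfp/yfp animals, in which both copies of Bcl11b carry a yellow fluorescent reporter. The bulk comparison used here set 3 Bcl11b+ DN2a libraries, sorted within the same gate as CD25+ YFP+, against 3 Bcl11b- DN2a libraries, sorted as CD25+ YFP-. The labels name no animal, age or pool for the C1 cells, so all of them count as a single sample and no test was made across them. Their labels carry 4 series of library numbers, called series A to D here in the order of the numbers. C1 values are FPKM, 10x values are counts of unique molecular identifiers (UMIs) and bulk values are FPKM.

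Il2ra encodes CD25, the alpha chain of the IL-2 receptor, whose appearance on Kit+ CD44+ precursors separates the DN2a stage from the earlier ETP stage. Bcl11b encodes a zinc-finger repressor that is switched on within the DN2 stage and is required for T-lineage commitment. Precursors that have passed into DN2a still hold transcripts of stem-cell and myeloid regulators, such as Spi1 (PU.1), which are silenced as commitment proceeds, while genes for T-cell receptor (TCR) components and their signalling partners come on.

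Bcl11b was detected in 23.6% of the Il2ra cells (29 cells with and 94 without, exact Clopper-Pearson 95% interval 16.4 to 32.1%, which covers counting error only). Among the 99 kept cells with Il2ra at or below 1 FPKM, 1 cell (1.01%, interval 0.0256 to 5.5%) held Bcl11b, at 1.14 FPKM. In the members with Bcl11b its level ranged from 1.02 to 24.16 FPKM with a median of 7.93 FPKM. Of the 94 members without it, 90 were listed at 0 FPKM. At the boundary for Bcl11b, the lowest values inside were 1.02 and 1.93 FPKM and the highest outside was 0.46 FPKM. At the boundary for Il2ra, the lowest values inside were 1.22, 1.29, 2.17 and 6.95 FPKM and the highest outside was 0.84 FPKM. Il2ra itself had a lowest, median and highest value of 20.93, 202.9 and 596.5 FPKM in the cells with Bcl11b, against 1.22, 98.47 and 426.2 FPKM in the cells without it. The gene models lie on mm10 chromosome 12, 107910403 to 108003414 on the minus strand, for Bcl11b and on chromosome 2, 11642792 to 11693194 on the plus strand, for Il2ra.

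The number of detected genes moved with the class. Cells with Bcl11b had 3122 to 7087 genes above 1 FPKM with a median of 5316, and cells without it had 2431 to 6951 with a median of 4507, so the ranges overlapped over most of their length. Mitochondrial genes took a median of 4.23% of the FPKM in cells with Bcl11b and 5.52% in cells without. Bcl11b was found in 5 of the 41 members with the fewest detected genes (12.2%, interval 4.08 to 26.2%), in 7 of the middle 41 (17.1%, 7.15 to 32.1%) and in 17 of the 41 with the most (41.5%, 26.3 to 57.9%). Across series the share was 15 of 53 in series A (28.3%, 16.8 to 42.3%), 5 of 10 in series B (50%, 18.7 to 81.3%) and 9 of 53 in series D (17%, 8.07 to 29.8%). Series C had none in 7 cells, and a count of 0 in 7 allows a share of up to 42.9% by the limit of 3 counts. The intervals of series A, B and D overlap.

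**Figure D1:**
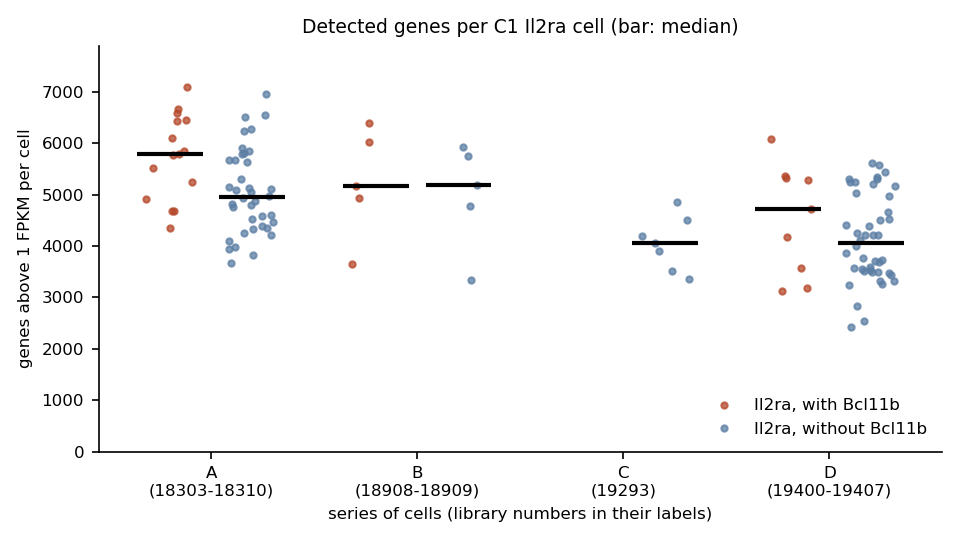
Genes above 1 FPKM in each C1 Il2ra cell, by series of library numbers (horizontal axis), for cells with Bcl11b (red) and without it (blue); each point is a cell and the bar is the median. In series A the medians were 5795 genes with Bcl11b and 4949 without, in B they were 5162 and 5194, and in D they were 4728 and 4057; C has no cell with Bcl11b.

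Over the 9812 genes above 1 FPKM in at least 10% of the members, with Bcl11b and Il2ra left out, the mean log2(FPKM + 1) was higher by at least 1 in the cells with Bcl11b for 1052 genes (10.7%) and lower by at least 1 for 87 (0.887%). The median difference over these genes was 0.29, that is, on the side of the cells with more detected genes. With the number of detected genes and the series as terms of a least-squares fit, a setting added after the data were seen, the counts were 273 higher (2.78%) and 264 lower (2.69%), with a median of -0.01. The second difference is called the depth-adjusted difference, and it is given beside the first for genes that cross 1 between the 2. The name stands for both terms, and no read depth entered the fit, since FPKM do not give it. Detected genes also moved with S-phase genes (below), so the fit can take out differences between cells other than depth. Scaling the cells to a common FPKM total gave 1276 higher and 1.75% lower. Without series A 3.07% of genes were lower, and without series D 1.66%.

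The 10 named genes higher with Bcl11b were Tcrg-C2, Tcrg-C1, Ly6d, Smc4, Trat1, Skap1, Tcrg-C3, Il7r, Mettl16 and Anxa2. Trat1, an adaptor that binds the TCR complex, was detected in 25 of 29 cells with Bcl11b (86.2%) and in 47 of 94 without it (50%). Its lowest, median and highest levels were 0, 141.2 and 676.9 FPKM with Bcl11b, against 0, 1.04 and 707 FPKM without. The difference of mean log2(FPKM + 1) was 3.22 (6.41 ± 3.04 with, SD, n = 29 cells; 3.20 ± 3.53 without, n = 94 cells), and 2.89 when depth-adjusted. Cells at 0 and cells at high levels occur in both classes, so the ranges overlap.

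Skap1, an adaptor that couples the TCR to integrin adhesion, showed the sparsest background. It was detected in 18 of 29 cells with Bcl11b (62.1%), at up to 352.9 FPKM with a median of 23.15, and in 10 of 94 cells without it (10.6%), at up to 69.52 FPKM with a median of 0. The difference was 3.12 and the depth-adjusted difference 2.90. Lat, the membrane scaffold that TCR kinases phosphorylate, was detected in 89.7% of cells with Bcl11b and 60.6% without, with medians of 51.76 and 12.29 FPKM and a difference of 2.08 (depth-adjusted 1.46). Themis, a regulator of TCR signalling in thymocytes, was detected in 10 of 29 cells with Bcl11b and in 5 of 94 without, a difference of 1.60 (depth-adjusted 1.49).

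Of the 16 measured genes in the list of TCR signalling adaptors and kinases, 6 were higher by at least 1 (Trat1, Skap1, Lat, Themis, Nck2 and Ptpn22) and 0 were lower, with a list median of 0.74 against 0.29 over all genes compared. Of all genes compared, 10.7% were higher by at least 1 and 0.887% lower. After depth adjustment 5 were higher, with Ptpn22 at 0.86 in place of 1.24, and 1, the kinase Fyn, was lower, at -1.29 in place of -0.61, with a median of 0.34 against -0.01. The kinase Lck was detected in all 29 cells with Bcl11b and in 96.8% of those without, with a difference of 0.84.

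The CD3 chains and Ptcra were at or near 0 in both classes. Cd3d and Cd3e were above 1 FPKM in no member of either class, and Cd3g in 2 of 29 cells with Bcl11b and 3 of 94 without. By the same limit a count of 0 allows a share of up to 10.3% of the 29 cells with Bcl11b and 3.19% of the 94 without, for counting error only. Ptcra, the pre-TCR alpha chain, was above 1 FPKM in 0 and 1 cells and Rag1 in 2 and 1 cells with and without Bcl11b. Cd247, the zeta chain, was detected in 13 of 29 cells with Bcl11b and 31 of 94 without, a difference of 0.65 (depth-adjusted 0.49). Of the 12 genes of the TCR and recombination list, of which 5 passed the filter of 10% of members, none differed by 1 in either direction (median 0.01).

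The gamma constant segments had large differences, the first and second in size being those of Tcrg-C2 and Tcrg-C1. Tcrg-C2 had a median of 1370 FPKM (0 to 9183) in cells with Bcl11b and 7.89 FPKM (0 to 5984) in cells without, a difference of 4.80. Tcrg-C1 had a median of 4162 FPKM (2.55 to 22010) with Bcl11b and 315.5 FPKM (0 to 9432) without, a difference of 3.81, and Tcrg-C3 a difference of 3.08. These segments are near-identical copies, so how reads were divided among them is uncertain. Their difference did not hold in every series: in series B, with 5 cells of each class, Tcrg-C1 differed by -0.10 and Tcrg-C3 by -1.77, against 5.52 and 5.67 in series D.

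Cytokine-receptor and stage genes followed. Il7r, the IL-7 receptor chain that precursors depend on for survival, was detected in 72.4% of cells with Bcl11b and 38.3% without, with medians of 55.92 and 0 FPKM and highest values of 544.8 and 219.8 FPKM. Its difference was 2.89 (depth-adjusted 2.31), and it was 3.59, 1.89 and 1.83 within series A, B and D. Ly6d, a surface protein of lymphoid precursors, had medians of 283.3 FPKM with Bcl11b and 35.79 FPKM without and a difference of 3.29 (depth-adjusted 2.72). Thy1, the pan-T-cell surface protein, was detected in 14 of 29 and 12 of 94 cells, a difference of 1.06 and, depth-adjusted, 0.70. Cd24a differed by 1.90 and, depth-adjusted, by 0.96.

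Among 17 T-lineage regulators, of which 13 passed the filter, 3 were higher by at least 1 and 0 lower, with a list median of 0.42 (10.7% of all genes compared were higher, with a median of 0.29). After depth adjustment 1 was higher and 1 lower, with a median of 0.23. Gata3, a factor required at T-lineage entry, was detected in 24 of 29 cells with Bcl11b and in 45 of 94 without, with medians of 10.74 and 0.865 FPKM and a difference of 1.36 (depth-adjusted 1.25). Tcf3, the E protein E2A, differed by 1.06 and Zeb1 by 1.09, but their depth-adjusted differences were 0.41 and 0.90. Tcf7 (TCF-1), which Notch signalling induces before Bcl11b, was detected in 96.6% of cells with Bcl11b and 96.8% without, and differed by 0.65. Runx3 was detected in 34.5% of cells with Bcl11b and 61.7% without, a difference of -0.73 (depth-adjusted -1.16). Lef1 was at 0 in every member.

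**Figure D2:**
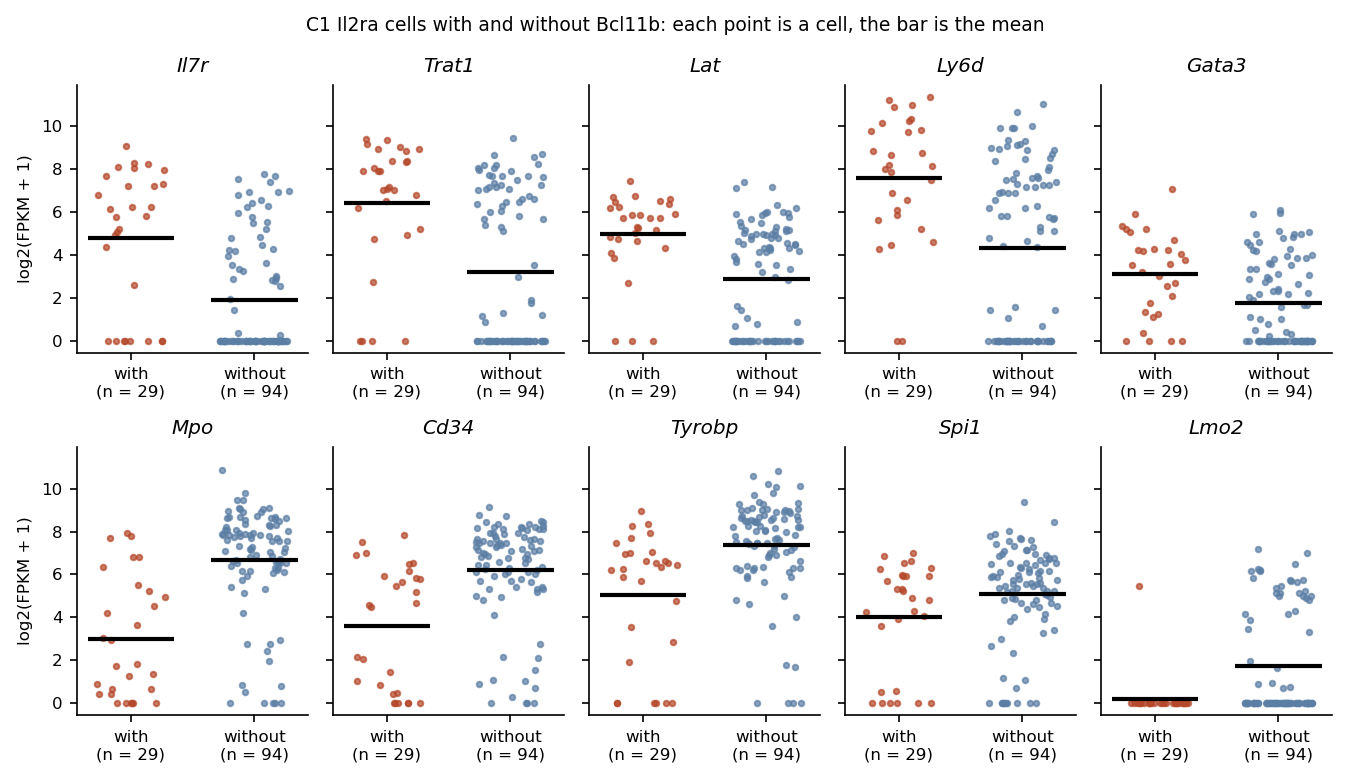
Level of 10 genes in each C1 Il2ra cell as log2(FPKM + 1), with Bcl11b (red, left, 29 cells) and without it (blue, right, 94 cells); each point is a cell and the bar is the mean. Upper genes have the higher mean in cells with Bcl11b, such as Il7r at 4.77 with and 1.88 without, and lower genes have the lower mean, such as Mpo at 2.98 with and 6.68 without; cells at 0 occur in both classes for all 10 genes.

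The 10 named genes lower with Bcl11b were Mpo, Ltb, mt-Ts1, Ifitm1, Cd34, Serpina3g, Lcn4, Tyrobp, Trbj2-1 and Tsc22d1. Mpo, the granule enzyme myeloperoxidase, was detected in 18 of 29 cells with Bcl11b (62.1%, interval 42.3 to 79.3%) and in 86 of 94 without it (91.5%, 83.9 to 96.3%). Its lowest, median and highest levels were 0, 2.51 and 243.9 FPKM with Bcl11b, against 0, 173.8 and 1848 FPKM without. The difference was -3.70 (2.98 ± 2.81 with, SD, n = 29 cells; 6.68 ± 2.53 without, n = 94 cells) and -3.90 when depth-adjusted. The ranges overlap, since cells at 0 and cells above 200 FPKM occur in both classes.

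Cd34, a sialomucin of haematopoietic progenitors, was detected in 20 of 29 cells with Bcl11b and in 87 of 94 without, with medians of 22.81 and 121.4 FPKM and a difference of -2.58 (depth-adjusted -3.08). Tyrobp, the ITAM-bearing adaptor DAP12 used by receptors of myeloid and natural killer cells, was detected in 79.3% and 95.7% of cells with and without Bcl11b, with medians of 80.55 and 240.8 FPKM and a difference of -2.33 (depth-adjusted -1.70). Serpina3g, a protease inhibitor, was detected in 34.5% with Bcl11b and 67% without, a difference of -2.57. Ltb, which encodes lymphotoxin beta, differed by -2.97 and was detected in 9 of 29 cells with Bcl11b and 71 of 94 without. Ifitm1 (-2.60), Lcn4 (-2.41) and Tsc22d1 (-2.08) were the other named genes with a lower mean within both series A and series D.

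The 18 progenitor regulators held 4 genes lower by at least 1 and none higher, with a list median of -0.12 against 0.29 over all genes compared, and 5 lower and none higher after depth adjustment (median -0.28). Over all genes compared, 0.887% were lower by at least 1 and, after depth adjustment, 2.69%. Lmo2, a bridging protein of stem-cell transcription complexes, was detected in 1 of 29 cells with Bcl11b (3.45%, interval 0.0873 to 17.8%) and in 31 of 94 without (33%, 23.6 to 43.4%), a difference of -1.51. Mef2c was detected in 6 of 29 and 42 of 94 cells, a difference of -1.22. Hhex, a homeobox factor, was still detected in 25 of 29 cells with Bcl11b and in 86 of 94 without, but at medians of 38.36 and 107.9 FPKM, a difference of -1.56. Spi1 was detected in 21 of 29 cells with Bcl11b (72.4%, 52.8 to 87.3%) and 83 of 94 without (88.3%, 80 to 94%), with medians of 29.04 and 46.9 FPKM and a difference of -1.07 (depth-adjusted -1.43). Of the regulators with smaller differences, Lyl1 (-0.02), Erg (0.22) and Gfi1b (-0.29) were detected in close to equal shares of the 2 classes, and Irf8 in 2 of 29 and 22 of 94 cells (-0.79, depth-adjusted -1.05).

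Progenitor regulators and Bcl11b were therefore found in the same cells. Counting Spi1, Lmo2, Mef2c, Hhex, Bcl11a, Lyl1, Erg and Gfi1b, a cell with Bcl11b held a mean of 4 ± 1.6 of the 8 (SD, n = 29 cells, range 1 to 7) and a cell without it 4.76 ± 1.36 (n = 94 cells, range 1 to 8). No cell of either class held none of them. The mean over all 18 regulators was 1.69 ± 0.57 on the log2(FPKM + 1) scale with Bcl11b and 2.07 ± 0.54 without. The mean over the 16 TCR adaptors and kinases was 2.92 ± 0.85 with and 1.97 ± 0.64 without. The ranges overlap for both means, from 0.78 to 3.15 with Bcl11b and 0.78 to 3.55 without for the regulators, and from 1.38 to 4.57 with and 0.33 to 3.52 without for the adaptors.

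Within the class with Bcl11b, 16 cells were above 5 FPKM and 13 between 1 and 5 FPKM. Their medians of detected genes were close, at 5208 and 5525. Spi1 was detected in 10 of the 16 cells and 11 of the 13, with means of 3.61 ± 2.89 and 4.45 ± 2.14 (SD), and Hhex in 12 of 16 and 13 of 13, with means of 4.19 ± 2.73 and 5.26 ± 1.43. Mef2c was detected in 5 of 16 and 1 of 13 cells, with means of 1.33 ± 2.12 and 0.25 ± 0.90, and Lmo2 in 1 of 16 and 0 of 13. Ly6d was detected in 16 of 16 and 11 of 13 cells, with means of 8.66 ± 2.19 and 6.29 ± 3.42, and Skap1 in 11 of 16 and 7 of 13. Mpo (10 of 16 and 8 of 13), Cd34 (10 of 16 and 10 of 13) and Il7r (11 of 16 and 10 of 13) had means that differed by 0.45 or less on the log2 scale. Cd24a was detected in 14 of 16 and 13 of 13 cells, with means of 6.045 ± 3.072 and 7.841 ± 1.603. It was thus lower above 5 FPKM, although higher with Bcl11b than without. Serpina3g was detected in 4 of 16 and 6 of 13 cells, with means of 1.03 ± 2.14 and 2.91 ± 3.35. The differences of Ly6d, Mef2c and Cd24a exceed the smaller of the 2 SDs. Those of Spi1, Hhex, Skap1, Serpina3g, Mpo, Cd34 and Il7r are smaller than the SD within either subset.

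Series stood apart for some genes. In the 63 members of series A and B, mt-Ts1 (a mitochondrial tRNA) and Trbj2-1 (a short joining segment) were at 0 in every cell, while in series D mt-Ts1 was detected in all 9 cells with Bcl11b and 41 of 44 without. Both were listed among the 10 lowest named genes, with differences of -2.97 and -2.11, but their depth-adjusted differences were 0.16 and 0.46, and within series D they were 0.01 and 1.62. Both turn positive once the series is a term, so neither is described as lower with Bcl11b. Of the genes compared, 11 were detected in at least 50% of the 60 members of series C and D and in at most 2% of these 63. Of the 20 named genes, 18 had the sign of the pooled difference within series A, 18 within D and 13 within B, where each class has 5 cells. In series A and B mt-Ts1 and Trbj2-1, at 0 in every cell, have no sign. The 20 genes were chosen by the pooled difference of these same cells, so these counts follow in part from that choice. In series B the differences of Anxa2 (-1.58), Tyrobp (2.14) and Tsc22d1 (2.82), besides Tcrg-C1 and Tcrg-C3, had the other sign.

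S-phase genes were higher in the cells with Bcl11b and moved with detected genes. Of 20 S-phase genes, 15 were higher by at least 1 (10.7% of all genes compared were) and 0 lower, with a median of 1.43. Pcna, the DNA polymerase clamp, had medians of 596.1 FPKM with Bcl11b and 222.1 FPKM without and a difference of 1.84, and Cdc6, which loads the replicative helicase, differed by 2.07. After depth adjustment only Cdc6, at 1.13, was past 1, Pcna was at 0.55 and the list median was 0.17. The mean of the list was larger in cells with more detected genes in both classes (Pearson r = 0.753 over 29 cells with Bcl11b and 0.763 over 94 without, Spearman rho 0.758 and 0.771, as a description, since cells share libraries and both measures rest on the same reads). Of 20 G2/M genes, 2, the kinase Cdk1 and the topoisomerase Top2a, were higher by at least 1 (1.33 and 1.47), but their depth-adjusted differences were -0.07 and 0.06, so that the sign of Cdk1 turns. The G2/M list then had 0 genes higher and 1, Ccnb2 (-1.09, in place of 0.14), lower, with a median of -0.33 against 0.67 before adjustment. Gapdh and Hprt, used by most cells, differed by 1.05 and 1.70 and, depth-adjusted, by 0.23 and 0.72.

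**Figure D3:**
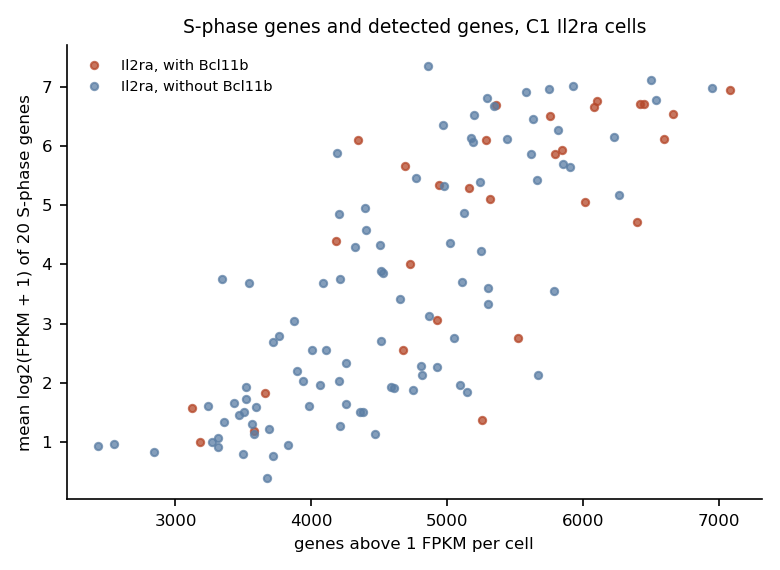
Mean log2(FPKM + 1) of the 20 S-phase genes (vertical axis) against genes above 1 FPKM (horizontal axis) in each C1 Il2ra cell, with Bcl11b in red and without it in blue. Cells of both classes lie along the same band, with medians of 5.35 with Bcl11b and 2.92 without.

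Other gene groups showed little or mixed difference. Among 12 granule proteins, Mpo and Serpina3g were lower and Cpa3, a mast-cell carboxypeptidase that early precursors also transcribe, was higher by 1.72 (depth-adjusted 2.05), with medians of 1783 FPKM with Bcl11b and 799.9 FPKM without. Of 14 measured Notch receptors and targets 1, Gata3, was higher by at least 1 and 0 lower, and Hes1 was detected in 86.2% of both classes. Of 14 interferon-stimulated genes 1, Ifit2, was higher by at least 1 (1.06, depth-adjusted 0.70) and 0 lower. Cd7, a surface protein of lymphoid progenitors, was detected in 8 of 29 cells with Bcl11b and 52 of 94 without, a difference of -1.45 and, depth-adjusted, -0.96. Mettl16, an RNA methyltransferase, was detected in 82.8% of cells with Bcl11b and 28.7% without, a difference of 2.85.

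Markers of other cell types were summed per cell. The myeloid and granulocyte list summed to 0 to 145.6 FPKM per cell (median 2.02) with Bcl11b and 0 to 472 FPKM (median 54.6) without, of which Lyz2 is the member that differed, by -1.65, while Camp and Ngp were at 0 in every member. B-cell markers summed to 0 to 97.5 and 0 to 269 FPKM, with Pax5, Ms4a1 and Igll1 among those at 0 throughout, and later thymocyte markers to 0 to 402 (median 81.7) and 0 to 161.9 FPKM (median 20.3), with Cd8b1, Trac and Cd2 among those at 0 and Arpp21 as the member that differed (2.18). The natural killer and innate lymphoid list summed to 48.4 to 1108 FPKM (median 309) with Bcl11b and 0 to 1448 FPKM (median 293) without, with Eomes, Klrk1 and Ncr1 at 0, and differed by at least 1 only through Gata3. Mast cell, erythroid and megakaryocyte markers reached at most 157.4 FPKM with and 148.5 FPKM without, dendritic cell markers 109.9 and 164.9 FPKM, and thymic stroma markers 96.4 and 136.4 FPKM, and Pecam1 of the last list differed by 1.07 (depth-adjusted 0.99). The part of these markers in the differences was not tested.

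The same split was made in the 10x libraries, which the rule did not use. After each cell was thinned to 4000 UMIs, so that depth did not choose the class, 665 of 1931 Il2ra cells held a Bcl11b UMI in library 1 (34.4%, interval 32.3 to 36.6%) and 1033 of 2750 in library 2 (37.6%, 35.7 to 39.4%). Without thinning the shares were 45.2% and 48.1%. Among cells with no Il2ra UMI at the same 4000 UMIs, the shares were 8.45% and 11%, a background that free RNA and cells expressing Bcl11b can both enter. Thinned cells with Bcl11b had median counts of 1474 and 1512 genes and those without had 1449 and 1489, so the gap in detected genes of the C1 cells was small here. UMI sums per library and class were tested with edgeR's quasi-likelihood test with the library as a block, over 10267 genes.

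Of these genes, 551 rose (5.37%) and 563 fell (5.48%) in the cells with Bcl11b at an adjusted p under 0.05. DESeq2 gave 1.29% and 1.16%, the fit with no replicate block 2.49% and 2.06%, and all UMIs without thinning 12.4% and 13.8%. The fit rests on 4 sums with 1 residual degree of freedom, so the spread edgeR uses for a gene is drawn largely from all genes together. The labels do not say whether the 2 libraries came from separate animals. The p-values of this fit therefore rest on a spread between these sums that genes share, and they do not measure a spread between animals. Skap1 had 98.5 and 97.3 CPM (UMIs scaled to a common library total) in the sums with Bcl11b, against 17.8 and 19.5 CPM in those without, a log2 fold change of 2.35 (SE 0.10, edgeR adjusted p = 4.93e-09). Mpo had 18.1 and 21.8 CPM with Bcl11b against 107.4 and 105.4 CPM without, a log2 fold change of -2.42 (SE 0.11, edgeR adjusted p = 4.93e-09). For both genes the libraries did not overlap between the classes.

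Of the 10 named genes higher in C1, 7 were tested in the 10x sums and 5 rose there: Ly6d (1.12), Smc4 (0.88), Skap1, Il7r (1.22) and Anxa2 (1.33). Trat1 had 3.38 and 2.42 CPM with Bcl11b against 2.57 and 1.17 CPM without (log2 fold change 0.66, SE 0.43, edgeR adjusted p = 0.419), and Mettl16 had 19.2 and 24.2 CPM with Bcl11b against 23.9 and 21.4 CPM without (-0.05, SE 0.16, edgeR adjusted p = 0.904). The Trat1 value rests on few counts, 9 and 10 UMIs in the sums with Bcl11b and 13 and 8 in those without. Of the 10 named genes lower in C1, 8 were tested and all 8 fell: Mpo, Serpina3g (-2.10), Cd34 (-1.64), Ifitm1 (-1.60), Tyrobp (-1.58), Lcn4 (-1.21), Ltb (-0.60) and Tsc22d1 (-0.52). The gamma constant segments, mt-Ts1 and Trbj2-1 were not tested there.

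The 10x cells with Bcl11b differed from the C1 cells in their TCR genes. Cd3e had 225.2 and 133.3 CPM with Bcl11b against 7.90 and 18.8 CPM without, and Ptcra 91.7 and 45.01 CPM against 2.77 and 5.39 CPM. Of 12 TCR and recombination genes 10 rose and 0 fell, against 5.37% and 5.48% of all genes tested. These genes, with Lef1 (log2 fold change 2.71) and Rag1 (3.45), are known for their expression in later thymocytes, and Cd3e and Lef1 were at 0 in all C1 members. The sorted bulk DN2a libraries held CD3 transcripts too. Cd3e had 14.2, 7.30 and 13.3 FPKM in Bcl11b+ DN2a, against 5.77, 0.275 and 0.824 FPKM in Bcl11b- DN2a (limma adjusted p = 0.166). Cd3g had 51.1, 34.5 and 90.6 FPKM against 19.8, 0.80 and 4.77 FPKM (limma adjusted p = 0.173). Of 11 TCR and recombination genes tested in bulk, 4 rose and 0 fell, against 1.15% and 1.64% of all genes tested. When the 6 DN2a libraries were fitted alone with a replicate block, the limma adjusted p was 0.00147 for Cd3e and 0.00295 for Cd3g. In that fit 9 of the 11 genes rose and 0 fell, against 7.44% and 9.34% of all genes tested. In a setting added after the data were seen, cells holding a Cd3e, Cd8a, Elane or S100a8 UMI were left out. Of 665 and 1033 cells with Bcl11b 483 and 819 remained, and of 1266 and 1717 without it 1240 and 1660. Then 432 genes rose (4.29%) and 440 fell (4.37%). Of 15 progenitor regulators then tested 9 fell and 0 rose, and of 11 TCR and recombination genes 8 rose and 1 fell. Lyl1 (-0.07 in place of -0.37), Nfe2 (-0.01 in place of -0.30) and Gfi1b (-0.49 in place of -0.76) were no longer called lower. Ptcra was then at 2.16 in place of 3.87 and Rag1 at 2.38 in place of 3.45, while Skap1 (2.28), Il7r (1.32), Mpo (-2.26), Tyrobp (-1.34) and Spi1 (-1.04) moved by less. Because Cd3e, which chose the cells to leave out, is itself a gene of the TCR list, the smaller values follow in part from that choice. What kind of cells were left out was not tested.

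Progenitor regulators were tested in the 10x sums for 16 of 18 genes, of which 12 fell and 1, Spib, rose. Over all genes tested there, 5.37% rose and 5.48% fell. Lmo2 had 3.76 and 6.29 CPM with Bcl11b against 22.5 and 24.3 CPM without (log2 fold change -2.18), and Spi1 45.1 and 51.6 CPM against 119.5 and 110.5 CPM (-1.26). Mef2c (-1.67), Hhex (-1.18) and Bcl11a (-1.17) fell as well. Of 16 T-lineage regulators 10 rose and 1, Runx3 (-0.51), fell. Gata3 rose by 0.64 and Ets1, an activator of T-cell genes, by 1.61, whereas Tcf7 was at 0.17 (SE 0.05, edgeR adjusted p = 0.0537). Of 15 TCR adaptors and kinases 10 rose and 1, Syk (-0.48), fell. In S phase 7 of 20 genes rose and in G2/M 13 of 20, with none falling, at list medians of 0.28 and 0.48. DESeq2, which called 1.29% of all genes higher and 1.16% lower, called 7 progenitor regulators lower. It called 5 TCR adaptors and kinases and 3 G2/M genes higher. No S-phase gene was called, and 4 were higher at an unadjusted DESeq2 p under 0.05.

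Sorted populations were compared as well, with Bcl11b activity read from the reporter. Each had 2 libraries made with NEBNext and 1, library 3, with SMART-Seq, and the labels do not say whether they came from separate animals, so p-values measure the spread between libraries. In the fit over 12112 genes, 1.15% rose and 1.64% fell in Bcl11b+ DN2a (limma, adjusted p under 0.05), and 847 rose and 1064 fell when the 6 DN2a libraries were fitted alone with the replicate block. Without Bcl11b- DN2a library 1, 2 or 3, the genes that rose numbered 64, 77 and 67 and those that fell made up 0.795%, 0.976% and 1.08%. Without Bcl11b+ DN2a library 2 or 3, 92 and 76 rose, and without library 3 0.918% fell. Without the kit as a term 0 genes rose and 4 fell (limma), and 0.908% were higher and 1.55% lower at an unadjusted p under 0.05. Bcl11b itself had 41.02, 44.3 and 16.1 FPKM in Bcl11b+ DN2a libraries, against 6.11, 3.08 and 0.60 FPKM in Bcl11b- DN2a libraries. In bulk samples, fewer cells with a transcript and less transcript per cell cannot be told apart.

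The named C1 genes were read in these libraries too. Skap1 had 26.6, 25.1 and 55.4 FPKM in Bcl11b+ DN2a, against 4.38, 2.10 and 6.81 FPKM in Bcl11b- DN2a (log2 difference 2.76, SE 0.22, limma adjusted p = 8.66e-05), with no overlap. Trat1 had 50.1, 79.4 and 148.1 FPKM against 13.6, 24.4 and 54.5 FPKM (1.63, SE 0.33, limma adjusted p = 0.0209), where the highest Bcl11b- library exceeded the lowest Bcl11b+ library. Mpo had 12.9, 7.40 and 21.8 FPKM against 127.2, 138.1 and 153.99 FPKM (-3.34, SE 0.20, limma adjusted p = 1.82e-05), with no overlap. Of the 10 named genes higher in C1, 7 were tested in bulk and 4 rose (Trat1, Skap1, Il7r and Anxa2), and of the 10 lower, 8 were tested and 7 fell. The call of Trat1 was lost without Bcl11b- DN2a library 1, or without Bcl11b+ DN2a library 2 or 3. Anxa2 was lost without Bcl11b- library 1 or 2 or Bcl11b+ library 3, and Ltb without Bcl11b- library 1 or 3 or Bcl11b+ library 2 or 3. Tsc22d1, at -0.82, Ly6d, at 0.96, and Smc4, at 0.83, had limma adjusted p of 0.0664, 0.149 and 0.0829, and passed with the block (0.00128, 6.96e-05 and 0.000333). Every named C1 gene called in bulk lost its call without the kit term except Mpo. In NEBNext libraries only, 8 of the 11 calls were lost, and those of Skap1, Mpo and Serpina3g were not. Mettl16 was at 0.01 (limma adjusted p = 0.999).

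Of 18 progenitor regulators tested in bulk, 10 fell and 0 rose (median -0.77, against -0.04 over all genes tested). Over all genes tested in this fit, 1.15% rose and 1.64% fell. Of 16 T-lineage regulators 3 rose and 0 fell, and of 15 TCR adaptors and kinases 6 rose and 1 fell. Of 9 ITAM adaptors and Fc receptors, the group that holds Tyrobp, 4 fell and 0 rose. In S phase 4 of 20 genes rose and in G2/M 6 of 20, with none falling. With the replicate block, where 7.44% of all genes rose and 9.34% fell, 14 of 20 S-phase and 19 of 20 G2/M genes rose. In that fit 6 of 16 T-lineage regulators rose and 2 fell, the latter near the share of all genes. Of 15 TCR adaptors and kinases 11 rose and 1 fell, and 13 of 16 progenitor regulators fell. In NEBNext libraries only, 3 of 18 progenitor regulators fell (0.252% of all genes did) and 2 of 15 TCR adaptors and kinases rose (0.109%).

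**Figure D4:**
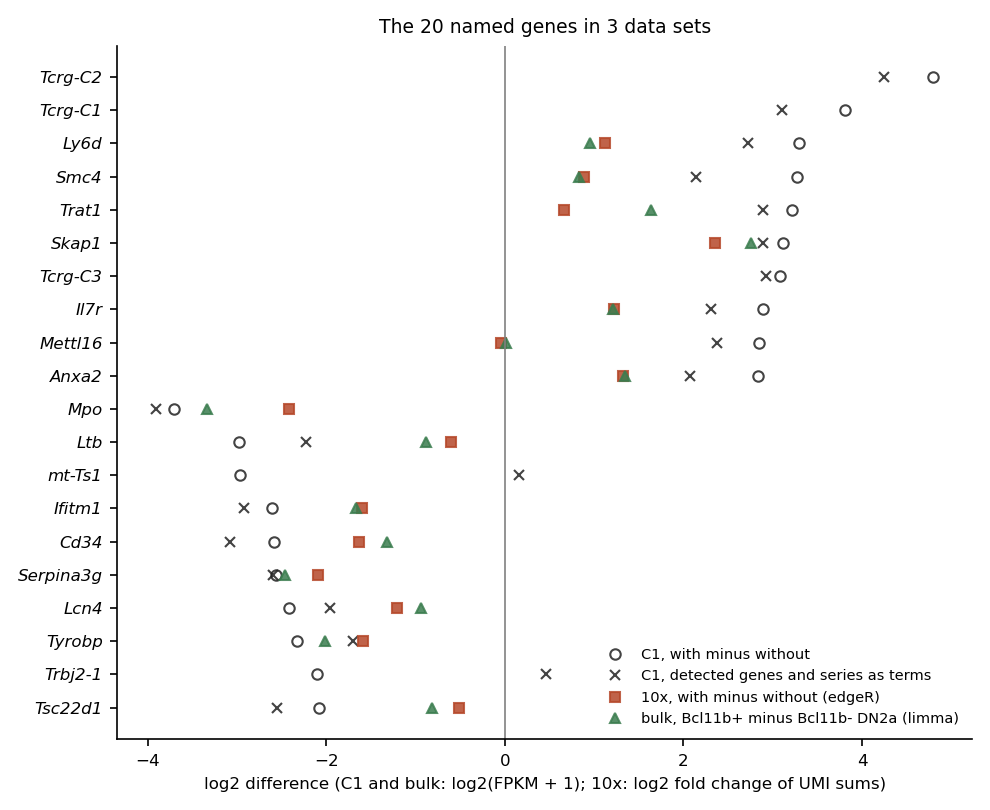
The 20 named genes (rows; 10 higher, then 10 lower, in C1 cells with Bcl11b) with their log2 difference in C1 (open circles), in C1 with detected genes and series as terms (crosses), in 10x sums (squares) and in bulk DN2a (triangles), each as with minus without Bcl11b or Bcl11b+ minus Bcl11b-. C1 differences are larger than those of the other data sets for most genes, mt-Ts1 and Trbj2-1 turn positive with the series as a term, and Mettl16 lies near 0 outside C1. The measures are unlike: C1 values are differences of means over single cells, where each cell at 0 counts, and the others compare UMI sums or whole libraries. Sizes therefore cannot be compared directly across data sets.

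Genes past 1 in C1 were then read in the other data sets. Of the 87 genes lower in C1, 70 were tested in 10x and 47 fell there (67.1%, against 5.48% of all genes tested) and 0 rose, and 72 were tested in bulk, where 38 fell (52.8%, against 1.64%) and 0 rose. Of the 1052 genes higher in C1, 993 were tested in 10x, where 13.3% rose (against 5.37%) and 11 fell, and 982 in bulk, where 49 rose (4.99%, against 1.15%) and 0 fell. For the 273 genes higher after depth adjustment the 10x share was 22.6% (56 of 248) and the bulk share 11.9% (29 of 244). For the 264 lower ones these shares were 30.5% (76 of 249) and 18.5% (46 of 249). The overlap itself was not tested.

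**Figure D5:**
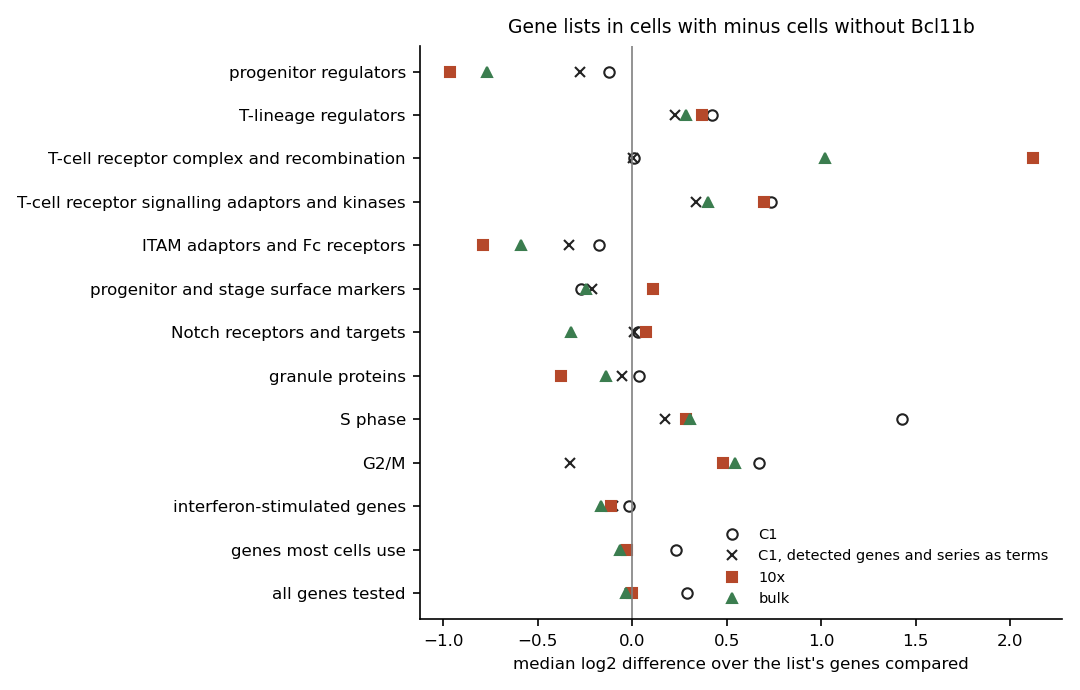
Median log2 difference (horizontal axis) of each gene list (rows) in C1 over measured genes (circles), in C1 with detected genes and series as terms (crosses), and over tested genes in 10x (squares) and bulk (triangles), each as with minus without Bcl11b or Bcl11b+ minus Bcl11b-. S-phase genes lie at 1.43 in C1, 0.17 after adjustment, 0.28 in 10x and 0.30 in bulk, and progenitor regulators lie below 0 in all 4. C1 values average over single cells and the others compare sums or libraries, so their sizes are not on the same measure.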

How the data were processed

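Members, gene lists and tests were chosen with earlier results of these data known. Of 227 C1 cells, 222 passed the minimum of genes and 123 of these were members, and series A to D are the library numbers 18303-18310, 18908-18909, 19293 and 19400-19407 of the labels. Per the submitters' processing notes, the authors derived the C1 FPKM with STAR 2.4.0 and RSEM 1.2.25 and the bulk FPKM with HOMER, both on mm10, and the deposited 10x matrices are UMI counts from Cell Ranger 2.0. In C1, detection meant more than 1 FPKM, and differences of means on log2(FPKM + 1) were called at 1, with no test. Between any 2 kept cells the highest correlation was 0.841 for 1 pair that held 0 members, and 0.689 among members, so no member was counted as a repeat. Named genes were the 10 largest differences in each direction among genes detected in at least 20% of members, besides genes of 19 lists with up to 4 examples each. Hes4 is not among the measured genes.

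The 10x cells had at least 1000 genes and under 10% mitochondrial UMIs (4878 and 8434 cells), and the 4628 and 6978 cells with 4000 UMIs or more were thinned to that number with a fixed seed. The libraries share 55 cell barcodes, and doublets were not removed. Sums were tested with edgeR 4.0.16. Bulk FPKM above 1 in at least 2 libraries were tested with limma 3.58.1 on log2(FPKM + 1), with population and kit as terms over 12 libraries. A pseudocount of 1 understates changes of low genes. P-values were adjusted by Benjamini-Hochberg over all genes tested. Deviations of DN2a libraries with the same replicate number correlated by 0.912, 0.93 and 0.98 (the last pair by its SMART-Seq label), each the highest for its library, so the numbers were taken to pair them. Depth of the bulk and C1 libraries is not given by FPKM. On simulated data of 10269 genes the 10x test recovered 94% of changes of 1 on the log2 scale with 6.01% false calls, and the bulk test, over 12112 genes, 80.8% with 4.06%. Changes were placed only in genes above a set mean level in each data set, so recovery of changes in lower genes was not simulated. The simulated bulk noise was independent between libraries. The real DN2a libraries deviated together in pairs, so the bulk rates do not apply to them as they stand.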

Additional observations from a re-analysis of the deposited data

How the results depend on the processing

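The share of C1 Il2ra cells with Bcl11b was 13.3% (16 of 120) when both transcripts had to exceed 5 FPKM. The percentages of genes higher and lower in C1 cells with Bcl11b were 28.1% and 2.88% with a pseudocount of 0.1, 10.5% and 2.48% for Bcl11b above 5 FPKM against 0 FPKM, 13% and 1.75% after TPM scaling, 6.96% and 2.69% in cells with 4500 to 6500 genes, and 2.78% and 2.69% with detected genes and series as terms. The last pair of settings was added after seeing the data. Leaving out each series gave 10.3 to 13.1% higher and 0.909 to 3.07% lower. With detected genes and series as terms, mt-Ts1 (0.16), Trbj2-1 (0.46) and Cdk1 (-0.067) had the opposite sign.

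In bulk, the percentages that rose and fell were 0.414% and 0.566% with no filter, 0% and 0.033% without the kit term, 0.109% and 0.252% in NEBNext libraries only, and 7.44% and 9.34% with the replicate block, which lost no named call. Without the kit term, 0.908% were higher and 1.55% lower at an unadjusted p under 0.05 (limma). Leaving out each DN2a library gave 0.53 to 0.787% and 0.795 to 1.33%. In 10x the percentages were 12.4% and 13.8% without thinning, 2.49% and 2.06% with no replicate block, and 1.29% and 1.16% with DESeq2, where 11 of 54 named genes lost their call. Myc, not called in the 10x sums, was at -0.14 without thinning and passed the threshold. Leaving out a 10x library leaves no residual degree of freedom, so it gave values per gene and no counts, and every called named gene kept its sign. FPKM carry no depth, so a transcript missing from a C1 cell may have been below detection.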
